A study of Mus musculus with 14 samples.

Results

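The regions described here are the accessible chromatin regions around Pou5f1, Sox2 and Sall4, 3 genes that encode transcription factors of the pluripotent state. Peaks from 14 ATAC-seq peak lists were merged wherever they overlapped by 1 bp or more, which gave 124598 regions on GRCm38. A region belonged to a gene if the nearest protein-coding transcription start site (TSS) in GENCODE M21 was that gene's and lay within 50 kb, and for Sox2 the regions 90 to 120 kb downstream were added. The rule found 42 regions, 10 at Pou5f1, 19 at Sox2 and 13 at Sall4. Of the 19 Sox2 regions, 12 lay within 50 kb and 7 in the downstream window.

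The libraries came from KH2 mouse embryonic stem (ES) cells, labelled as strain C57BL/6 and carrying the doxycycline (Dox)-inducible transgene TRE:GATA6-DSREd2, in which GATA6 starts conversion towards primitive endoderm (PrE). ATAC-seq marks open chromatin with a transposase that inserts adapters into accessible DNA, and each library was made from 50000 cells. There were 7 time points (0, 2, 4, 8, 16, 24 and 48 h) with 2 libraries each. The 0 h cells were grown in 2i medium with LIF and no Dox, whereas all others were in serum medium with LIF after Dox at 1 µg/mL, which was withdrawn after 12 h for the 16, 24 and 48 h cells. The transgene was carried by every library, 0 h included, and all libraries came from 1 line. No library was made from cells in serum without Dox, so medium and GATA6 cannot be told apart. The labels do not say whether the replicates were separate cultures. The study states that replicate experiments were done independently, without saying that the ATAC-seq replicates were separate cultures. P-values therefore measure only the spread between these libraries.

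POU5F1 (also called OCT4) and SOX2 bind DNA together at joined octamer and SOX elements, and they sustain both their own genes and the wider pluripotency network. SALL4 is a zinc finger protein of the same network. PrE cells descend from the same inner cell mass as the epiblast (Epi), and GATA6 is the factor that specifies them. A distal cis-regulatory element (CRE) can lie far from its gene, and Sox2 in ES cells is known for a downstream control region of this kind.

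Pou5f1 (ENSMUSG00000024406) lies on the plus strand of chromosome 17 at 35506018 to 35510772, Sox2 (ENSMUSG00000074637) on the plus strand of chromosome 3 at 34650405 to 34652461, and Sall4 (ENSMUSG00000027547) on the minus strand of chromosome 2 at 168748332 to 168767943. Distances below are from the TSS to the region's centre, in the direction of transcription. Of the 42 regions, those upstream of Pou5f1 from 1.0 to 17.6 kb lay between genes, as did the upstream regions of Sall4 and all 7 distal Sox2 regions. All Sox2 regions within 20 kb of the TSS lay in introns of the noncoding gene Sox2ot, which spans Sox2.

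The windows shown are the central 200 bp of 8 regions whose calls changed or that held a joined motif, from the GRCm38 reference, plus strand, 5′ to 3′. Capitals mark a match on either strand. The octamer core was searched as ATGCAAA. The SOX core was searched as ACAAT. The SOX and octamer motif joined was searched as TTGTNATGC. The GATA motif was searched as GATAA. A joined match with an A before it also contains the reverse complement of the SOX core, and both are then counted.
Pou5f1 15.4 kb upstream, chr17:35490535-35490734: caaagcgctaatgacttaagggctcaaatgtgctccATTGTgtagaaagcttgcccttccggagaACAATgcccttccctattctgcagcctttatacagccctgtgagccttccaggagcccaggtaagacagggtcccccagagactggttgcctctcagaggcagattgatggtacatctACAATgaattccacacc
Pou5f1 1.9 kb upstream, chr17:35504040-35504239: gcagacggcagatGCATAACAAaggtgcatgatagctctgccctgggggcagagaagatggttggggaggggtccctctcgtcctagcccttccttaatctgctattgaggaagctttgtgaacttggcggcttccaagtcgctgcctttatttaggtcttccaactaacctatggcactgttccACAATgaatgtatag
Pou5f1 1.0 kb upstream, chr17:35504903-35505102: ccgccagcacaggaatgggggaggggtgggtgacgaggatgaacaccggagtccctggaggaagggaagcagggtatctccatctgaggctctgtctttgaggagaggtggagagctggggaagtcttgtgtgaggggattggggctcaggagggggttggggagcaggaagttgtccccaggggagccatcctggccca
Sox2 3.7 kb downstream, chr3:34653970-34654169: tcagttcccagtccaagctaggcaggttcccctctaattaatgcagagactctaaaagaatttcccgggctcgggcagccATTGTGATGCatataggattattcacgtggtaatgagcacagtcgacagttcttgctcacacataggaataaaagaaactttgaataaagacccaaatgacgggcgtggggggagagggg
Sox2 103.3 kb downstream, chr3:34753576-34753775: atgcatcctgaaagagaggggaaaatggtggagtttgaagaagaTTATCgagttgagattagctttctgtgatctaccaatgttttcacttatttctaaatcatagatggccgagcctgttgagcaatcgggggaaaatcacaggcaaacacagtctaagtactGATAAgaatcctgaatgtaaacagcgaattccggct
Sox2 111.0 kb downstream, chr3:34761268-34761467: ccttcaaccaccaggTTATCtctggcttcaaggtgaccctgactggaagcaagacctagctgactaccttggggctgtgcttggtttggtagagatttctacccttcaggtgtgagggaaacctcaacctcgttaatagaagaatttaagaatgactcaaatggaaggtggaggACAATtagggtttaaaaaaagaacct
Sall4 23.3 kb upstream, chr2:168791182-168791381: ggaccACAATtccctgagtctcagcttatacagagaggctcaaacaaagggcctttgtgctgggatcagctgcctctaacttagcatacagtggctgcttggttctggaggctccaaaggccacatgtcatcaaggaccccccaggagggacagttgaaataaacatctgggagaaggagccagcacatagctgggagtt
Sall4 46.8 kb upstream, chr2:168814614-168814813: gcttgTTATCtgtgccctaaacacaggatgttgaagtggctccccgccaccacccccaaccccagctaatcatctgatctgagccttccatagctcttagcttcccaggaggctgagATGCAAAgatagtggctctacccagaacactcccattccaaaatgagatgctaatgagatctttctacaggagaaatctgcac

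The joined SOX and octamer motif was present in 2 of the 42 windows, Pou5f1 1.9 kb upstream and Sox2 3.7 kb downstream, against 0.978% of the 124598 windows of all regions. The SOX core was present in 14 of 42 (28.7% of all windows), the GATA motif in 12 of 42 (29.9% of all windows) and the octamer core in 1 of 42 (5.49% of all windows), the Sall4 region 46.8 kb upstream. The GATA and SOX shares at the 3 loci were therefore near those of all regions. GATAA occurred 2 times in the Sox2 window 103.3 kb downstream, which had a call in both replicates from 24 h on. It occurred 2 times also in the window 94.8 kb downstream, which was called at every time point. The Sall4 window 14.9 kb upstream, called in 1 library at 48 h, held 2 GATAA matches as well. The median GC content was 51% in the 42 windows and 50.5% in all windows. A match describes these letters and is not a measurement of binding.

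Peak numbers ran from 55588 to 65073 per library. They carry no read counts, so depth is unknown, and a region without a call may be accessible below that library's threshold. Each peak has 1 score, which was turned into a percentile among the peaks of its own library, so 100 is the highest peak of a list. As a check of the labels, promoters (within 1 kb of the TSS) of PrE marker genes were called in both libraries for 8 of 14 genes at 0 h and for 10 of 14 at 48 h. Gata4, Sox17, Pdgfra, Foxa2 and Hnf4a were called in neither 0 h library and in both 48 h libraries. The Sparc promoter went the other way, from both libraries to neither, and those of Col4a1 and Col4a2 went from both libraries to 1. ES cell marker promoters were called in both libraries for 5 of 9 genes at 0 h and 4 of 9 at 48 h. Nanog went from both libraries to neither, and those of Esrrb, Fgf4 and Tdgf1 were never called. Promoters of trophectoderm genes went from 4 to 6 of 8. Those of mesoderm and neural genes were at 2 of 6 at both times, but for different genes. T went from both libraries to neither and Mixl1 from both to 1, whereas Mesp1 went from neither to both and Sox1 from 1 to both. The part of other cell types in the results was not tested.

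**Figure D1:**
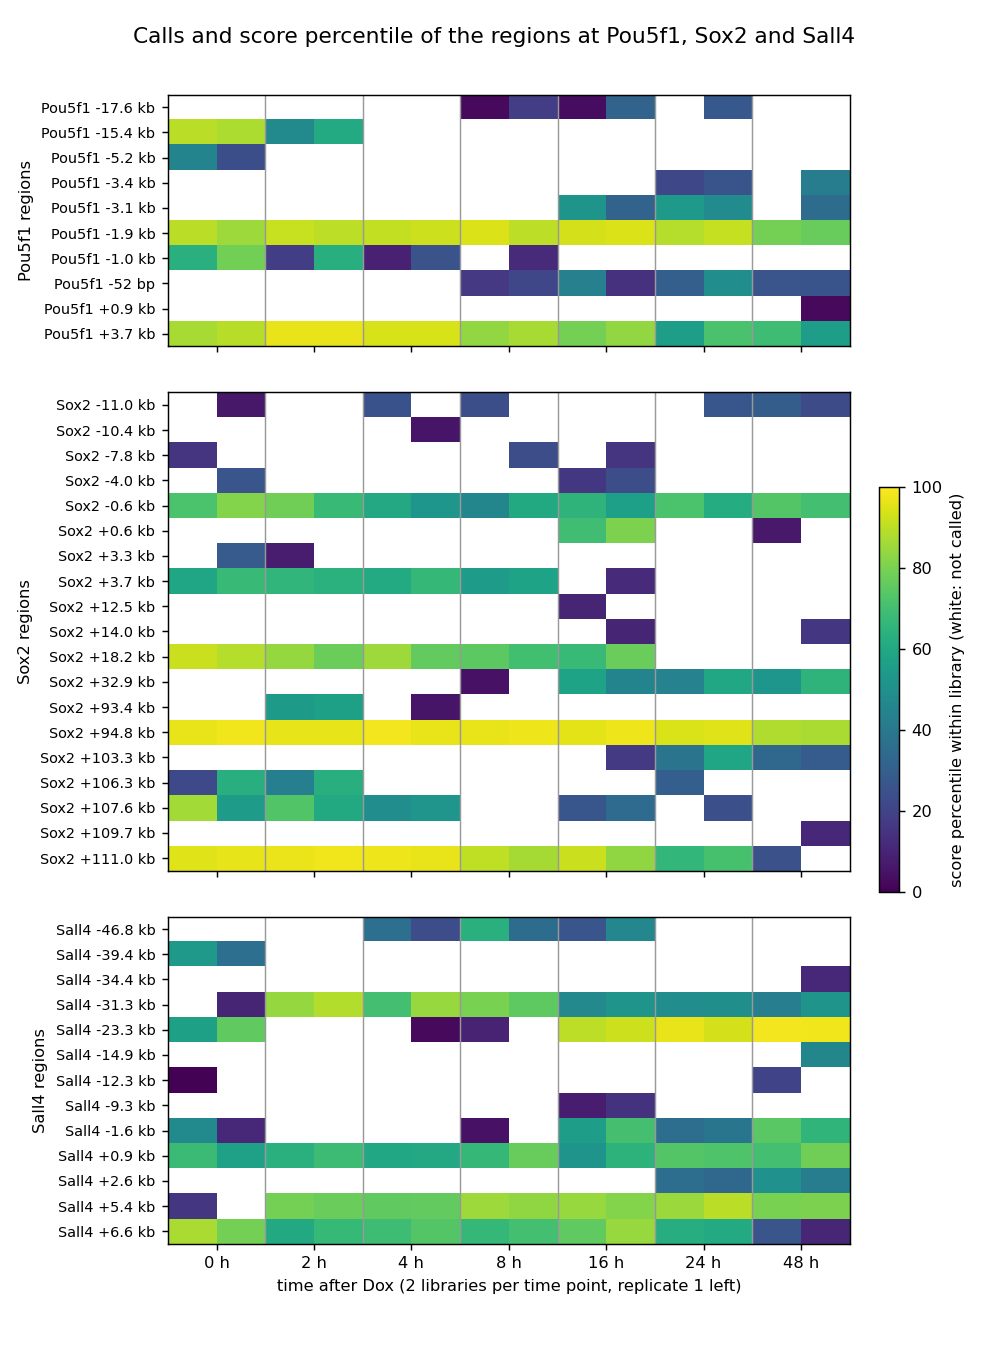
Score percentile within each library (colour, 0 to 100) of the 42 regions in the 14 libraries, 1 row per region and 1 column per library, with white where no peak was called. Row names give the distance from the TSS, minus for upstream and plus for downstream. Pou5f1 and Sox2 rows that are filled at 0 h and white later sit beside rows that fill only from 8 h, 16 h or 24 h.

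To ask when regions at the 3 loci closed, loss was defined as a call in both 0 h libraries and no call in either library of a later time point. Of 17 regions called in both 0 h libraries, 4, 5, 5, 5, 6 and 8 were lost at 2, 4, 8, 16, 24 and 48 h. Over all 47093 regions called in both 0 h libraries, 16.5%, 19.5%, 26.4%, 25.7%, 35.0% and 44.0% were lost at the same times. The 47.1% lost at the 3 loci at 48 h was thus near the background. Conversely, 18 regions were called in neither 0 h library, of which 1, 1, 3, 7, 6 and 4 were called in both libraries at 2, 4, 8, 16, 24 and 48 h. The 4 gained at 48 h became 11 without 48 h replicate 1 and 12 where a call in 1 library was enough. Among all 60588 regions called in neither 0 h library the shares gained were 17.8%, 20.8%, 22.9%, 27.3%, 23.8% and 29.8%. No p-value is given for these counts, since an exact two-sided test of 2 libraries against 2 cannot go below 0.333.

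**Figure D2:**
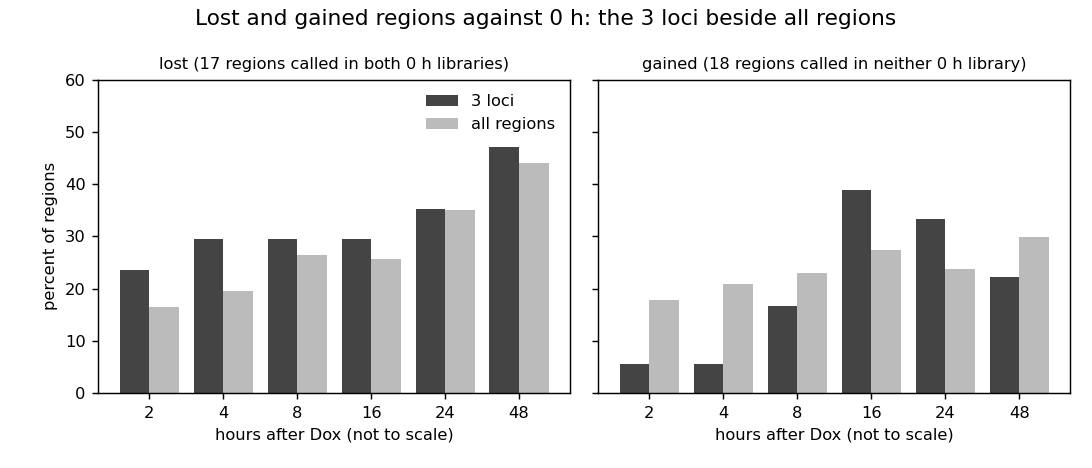
Percent of regions lost (left) and gained (right) against 0 h at each later time point, dark bars for the 3 loci and light bars for all regions. At 48 h the bars for loss stand at 47.1% and 44.0%, and those for gain at 22.2% and 29.8%.

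The counts of lost regions are given by gene, from 5 regions of 0 h at Sall4, 5 at Pou5f1 and 7 at Sox2. Over all regions the shares lost were 16.5% at 2 h and 44.0% at 48 h. A 20 kb limit left 2 members lost at 2 h, against 4 under the 50 kb rule. Sall4 had 3 of its 5 regions of 0 h lost at 2 h, but 2 at 4 h and 1 from 8 h to 48 h, because calls returned. Pou5f1 had 1 of 5 lost at 2 h, 2 at 4 and 8 h and 3 from 16 h to 48 h. Sox2 had 0, 1, 2, 1, 2 and 4 of 7 lost at the 6 successive times. Whether the order differed between the genes was not tested.

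A trend over time was tested for each region called in 2 to 12 libraries with exact permutation of time ranks (two-sided), adjusted by the Benjamini-Hochberg method over all 79559 such regions. Of the 27 member regions tested, 4 fell and 4 rose, against 12.3% falling and 12.1% rising over all regions tested. The falling regions were 2 at Pou5f1 and 2 at Sox2, and the rising ones were 1 at Pou5f1, 2 at Sox2 and 1 at Sall4. Each of these 8 regions had an adjusted p of 0.0130 in the exact permutation test.

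At Pou5f1, both regions that fell lay upstream. The region 15.4 kb upstream (chr17:35490382-35490887) was at percentiles 89.6 and 87.5 in the 0 h libraries and 47.8 and 61.3 at 2 h, and was not called from 4 h on. Without the 0 h libraries its fall missed the threshold (exact permutation test, adjusted p = 0.0622). The region 1.0 kb upstream (chr17:35504584-35505421) was at 63.4 and 78.7 at 0 h, 18.1 and 62.6 at 2 h, and 9.2 and 25.6 at 4 h. It was called in 1 library at 8 h, at 12.2, and in none from 16 h. With peaks up to 200 bp apart merged, it joined the region 1.9 kb upstream and its fall was no longer a separate result. Under that rule 2 Pou5f1 regions were lost at 48 h and 3 members fell over time. Another region that was lost, 5.2 kb upstream, was called only at 0 h, at 45.2 and 23.9, and missed the trend threshold (exact permutation test, adjusted p = 0.0541).

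The Pou5f1 promoter region was called only from 8 h. The region centred 52 bp upstream of the TSS (chr17:35505848-35506084), which covers the first bases of the 5′ UTR exon, was called in none of the 6 libraries of 0, 2 and 4 h and in both libraries at 8, 16, 24 and 48 h. Its percentiles from 8 h ran from 14.2 to 49.0, in the lower part of the lists. The 2 regions 3.1 and 3.4 kb upstream were likewise absent until 16 and 24 h, when both libraries called them, but only 1 of the 48 h libraries did (adjusted p = 0.0541 and 0.0733 in the exact permutation test). The region 17.6 kb upstream was called in both libraries at 8 and 16 h and in 1 at 24 h. The region 0.9 kb downstream, in an intron, was called in 1 library at 48 h.

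The remaining Pou5f1 regions were called in all 14 libraries. The region 1.9 kb upstream (chr17:35503864-35504416), which holds the joined motif, was at 89.6 and 85.5 at 0 h, between 88.8 and 94.8 in the 10 libraries from 2 to 24 h, and at 79.0 and 76.7 at 48 h, so both 48 h libraries lay below all others. The limma difference at 48 h against 0 h was -9.73 ± 2.22 points (SE, adjusted p = 0.00976). This call was lost on a logit scale (limma adjusted p = 0.0733), with a linear trend (0.278), without 0 h replicate 1 (0.0621) and without 48 h replicate 2 (0.0621), and with peak width in place of score the difference was 1.45 points. The region 3.7 kb downstream (chr17:35509281-35510123), in a coding exon that an antisense noncoding gene overlaps, was at 86.8 and 89.2 at 0 h and 96.7 and 96.8 at 2 h. At 48 h it was at 68.9 and 55.9, below both 0 h libraries. Its limma difference was -24.5 ± 5.33 points at 24 h (SE, adjusted p = 0.0125) and -25.6 ± 5.33 at 48 h (SE, adjusted p = 0.00629).

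**Figure D3:**
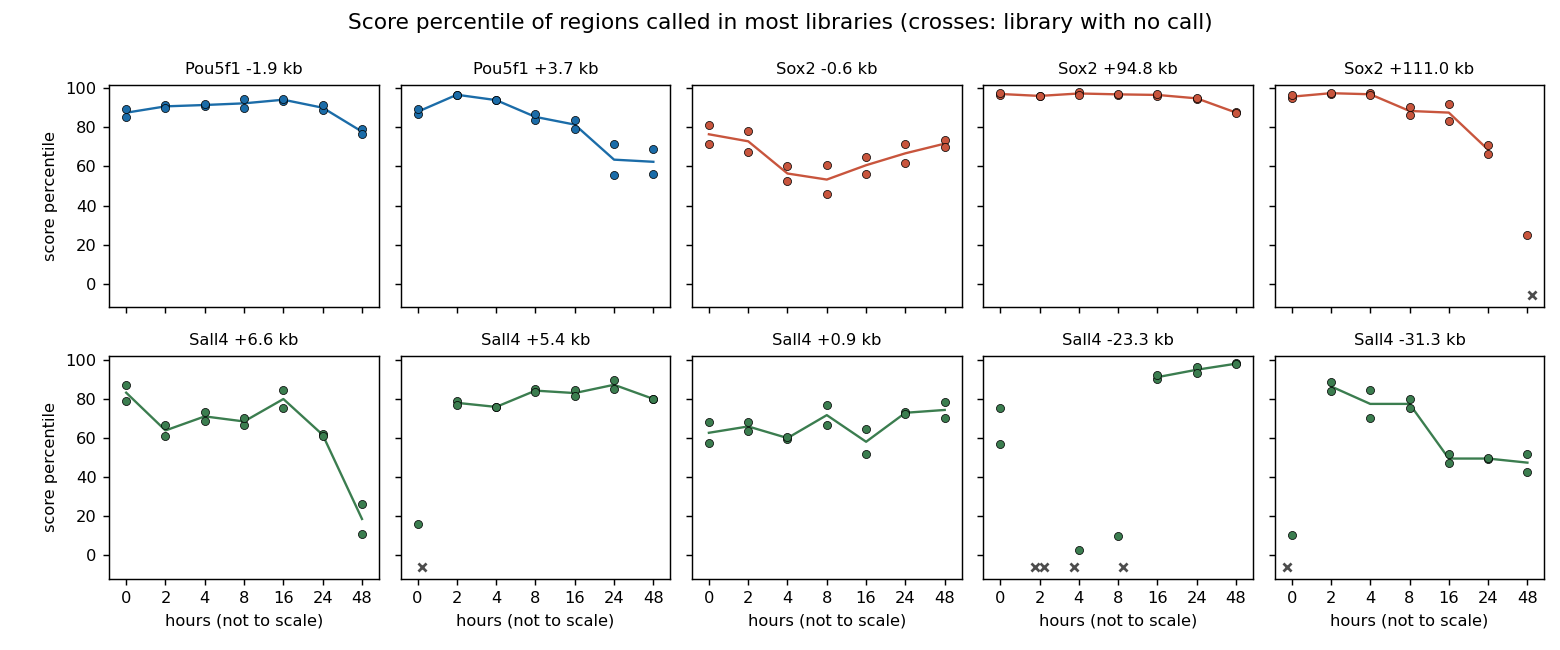
Score percentile within each library (vertical axis, 0 to 100) against hours after Dox (not to scale) for 10 regions, with 1 point per library, a line through the means of time points where both libraries had a call, and crosses for libraries with no call. The Sall4 region 6.6 kb downstream ends at 26.4 and 10.6, and the Sall4 region 23.3 kb upstream ends at 98.3 and 97.8.

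At Sox2, the region 0.6 kb upstream stayed called throughout, and 2 regions within 20 kb downstream lost their calls by 24 h. The region 0.6 kb upstream (chr3:34649199-34650327) was at 71.6 and 81.4 at 0 h, 45.9 and 60.7 at 8 h, and 73.4 and 70.0 at 48 h. Its limma difference was -23.2 ± 6.46 points at 8 h (SE, adjusted p = 0.0453), and at 48 h it was -4.76 ± 6.46 (SE, adjusted p = 0.608), which did not pass the threshold. The region 0.6 kb downstream, in the coding exon, had the centre nearest the TSS, at 630 bp against 642 bp for the upstream region. It was called in both libraries only at 16 h, at 69.5 and 80.4, and in 1 library at 48 h.

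The Sox2 region 3.7 kb downstream (chr3:34653916-34654224), the other window with the joined motif, was called in all 8 libraries from 0 to 8 h at percentiles from 55.3 to 67.5. It was called in 1 library at 16 h, at 12.3, and in none at 24 or 48 h. The region 18.2 kb downstream (chr3:34668427-34668834) was at 91.8 and 88.9 at 0 h and still at 67.9 and 77.2 at 16 h, and was called in none of the 4 libraries of 24 and 48 h. Unlike these, the region 32.9 kb downstream (chr3:34682995-34683518) was absent to 4 h, called in 1 library at 8 h, at 4.9, and called in both from 16 h at percentiles from 44.4 to 65.0. Both directions of change therefore occurred within 50 kb of Sox2.

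In the window 90 to 120 kb downstream of Sox2, 2 regions were among the highest peaks of both 0 h lists. The region 94.8 kb downstream (chr3:34744924-34745584) was at 96.6 and 97.7 at 0 h and at 87.9 and 87.3 at 48 h, and the 12 libraries to 24 h all lay above both 48 h libraries. Its limma difference at 48 h was -9.56 ± 1.45 points (SE, adjusted p = 0.00118), and with peak width in place of score it was 11.04 points (limma adjusted p = 0.290). The region 111.0 kb downstream (chr3:34761083-34761653) was at 95.1 and 96.4 at 0 h, 66.2 and 71.0 at 24 h, and 24.7 in 1 library at 48 h with no call in the other. It was called in 13 libraries, outside the range of the trend test. With a single value at 48 h, no test of its percentile is given.

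The weaker distal regions were called less steadily. The region 106.3 kb downstream was at 22.1 and 63.2 at 0 h and 43.2 and 62.5 at 2 h, was absent from 4 to 16 h, and was called in 1 library at 24 h. The region 107.6 kb downstream was at 86.1 and 55.3 at 0 h, was called in both libraries to 4 h and again at 16 h, and was absent at 8 and 48 h. Both were lost at 48 h and neither passed the trend test (exact permutation test, adjusted p = 0.0874 each). The region 103.3 kb downstream (chr3:34753457-34753895) was called in 1 library at 16 h and in both at 24 h, at 38.6 and 58.7, and at 48 h, at 33.3 and 29.1, and it rose in the trend test, a call that was lost where 50% of a region had to be covered (exact permutation test, adjusted p = 0.2195). The region 93.4 kb downstream was called in both libraries at 2 h, at 54.3 and 56.7, and in 1 at 4 h.

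The regions at Sall4 moved in both directions and 2 of them lost and regained their calls. The region 23.3 kb upstream (chr2:168790835-168791728) was at 57.0 and 75.5 at 0 h and was called in neither library at 2 h. It was called in 1 library at 4 h, at 2.7, and in 1 at 8 h, at 9.8, and then in all 6 later libraries at 90 to 98.3. The region 1.6 kb upstream was at 47.8 and 11.7 at 0 h, absent at 2 and 4 h, called in 1 library at 8 h, and at 74.3 and 65.4 at 48 h. Neither passed the trend test, which ranks calls from early to late (exact permutation test, adjusted p = 0.328 and 0.249).

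Other Sall4 regions changed within the first 2 h. The region 39.4 kb upstream was called only at 0 h, at 53.8 and 36.5, and missed the trend threshold (exact permutation test, adjusted p = 0.0541). The region 31.3 kb upstream (chr2:168798889-168799640) was at 10.2 in 1 library of 0 h, 84.3 and 88.6 at 2 h, and 42.8 and 51.9 at 48 h. The intronic region 5.4 kb downstream (chr2:168761942-168763069) was at 15.7 in 1 library of 0 h and between 75.7 and 89.5 in the 12 later libraries. For both, 0 h has a single value, so no test is given, and both were called in 13 libraries, outside the range of the trend test.

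In the Sall4 gene body, 1 region gained calls late and another fell in percentile. The region 2.6 kb downstream (chr2:168765058-168765592), over an exon, was called in none of the 10 libraries to 16 h and in each of the 4 from 24 h on, at 33.6 to 50.4, and it rose in the trend test. Its peaks covered 45.8% of the region in both 24 h libraries and 36.6% and 94.8% at 48 h. Where 50% had to be covered, the rise could therefore not be tested. The region 6.6 kb downstream (chr2:168761059-168761565) was called in all 14 libraries and was at 87.3 and 79.1 at 0 h, 62.2 and 61.0 at 24 h, and 26.4 and 10.6 at 48 h. Its limma difference was -21.6 ± 5.43 points at 24 h (SE, adjusted p = 0.0229) and -64.7 ± 5.43 at 48 h (SE, adjusted p = 4.1e-05). The region 0.9 kb downstream (chr2:168766691-168767418), the nearest to the TSS, was at 68.0 and 57.3 at 0 h and 70.2 and 78.5 at 48 h. That difference, 11.7 ± 5.49 points, did not pass the threshold (SE, limma adjusted p = 0.132). The region 46.8 kb upstream, with the octamer core, had a call in each of the 6 libraries from 4 to 16 h and nowhere else.

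Across the 6 member regions called in all 14 libraries, limma found lower percentiles than at 0 h for 0, 0, 1, 0, 2 and 4 regions at 2, 4, 8, 16, 24 and 48 h. The shares of the 18809 regions tested were 4.50%, 4.59%, 4.22%, 3.80%, 7.80% and 18.0%. None of the 6 was higher at any of these times by limma, and over all regions 6.33%, 8.52%, 10.7%, 12.1%, 15.1% and 17.6% were. The 0 h means of the 6 ran from 62.7 (Sall4 0.9 kb downstream) to 97.2 (Sox2 94.8 kb downstream). A percentile has an upper end, so regions that start near it have little room to rise. Whether regions with similar 0 h percentiles rose as rarely was not tested. Before adjustment, 1 of the limma comparisons of the 6 with 0 h was higher with p under 0.05, Pou5f1 1.9 kb upstream at 16 h (6.64 points, limma adjusted p = 0.0825). At 2, 4 and 16 h, where no region was lower after adjustment, 1 of the 6 was lower at each time by unadjusted p, namely Sall4 6.6 kb downstream at 2 h and Sox2 0.6 kb upstream at 4 and 16 h. The median difference of all 18809 regions at 48 h was 1.65 points, against which the 4 lower regions stood at -9.56 to -64.7 points.

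**Figure D4:**
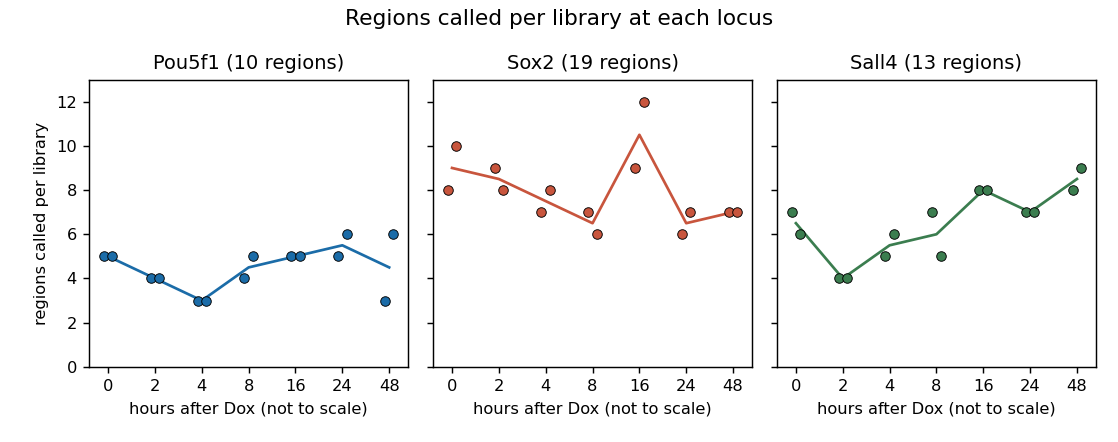
Number of regions called per library (vertical axis) against hours after Dox (not to scale) at Pou5f1 (of 10), Sox2 (of 19) and Sall4 (of 13), with 1 point per library and a line through the mean of both. Sall4 is lowest at 2 h, with 4 regions in each library, and Pou5f1 at 4 h, with 3 in each.

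The number of regions called per library gave a level for each locus. At Pou5f1 both libraries called 5 regions at 0 h, 4 at 2 h and 3 at 4 h. The mean at 48 h was 4.5 ± 2.12 (SD, n = 2), from 3 and 6 regions. At Sox2 the mean was 9.0 ± 1.41 before Dox, 6.5 ± 0.707 at both 8 and 24 h, and 10.5 ± 2.12 at 16 h (SD, n = 2), and both 48 h libraries called 7. At Sall4 the mean went from 6.5 ± 0.707 before Dox to 8.5 ± 0.707 at 48 h (SD, n = 2), with 4 regions in both 2 h libraries. The ranges at 0 and 48 h overlapped for Pou5f1. They did not for Sox2 (8 and 10 regions at 0 h, 7 and 7 at 48 h) or Sall4 (7 and 6 at 0 h, 8 and 9 at 48 h). An exact two-sided test of 2 libraries against 2 cannot go below 0.333, so ranges apart are no result about these loci. The share of other loci with ranges apart was not counted. Over the whole genome the 0 h libraries called 54137 and 56966 regions and the 48 h libraries 51784 and 54532, which overlapped. The difference in regions called at the loci was not tested. The 16 h libraries had the most regions at the 3 loci together, 23.5 ± 2.12 (SD, n = 2), and also the most over the whole genome, 60540 ± 3012 (SD, n = 2), and the part of list length was not tested.

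Regions just outside the rule also varied. A region 74.1 kb upstream of Sox2 was called in both libraries from 0 to 16 h and in none later, and one 84.7 kb downstream was called in both to 24 h and in neither at 48 h. Conversely, a region 70.8 kb downstream was called in none to 8 h and in both libraries at 16, 24 and 48 h. A region 52.8 kb upstream of Sall4 was called in all 14 libraries. Near Pou5f1, the region 11.1 kb downstream, nearest to Cchcr1, was called in all 14, and the region 18.7 kb upstream, nearest to H2-Q10, was called in both libraries from 8 h. These are given as values, without a test.

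For comparison, 29 other genes of the pluripotency network had 351 regions by the same 50 kb rule. Of their 134 regions called in both 0 h libraries, 23 were lost at 2 h (17.2%) and 64 at 48 h (47.8%). These shares were near the 16.5% and 44.0% of all regions. Of 170 regions called in neither, 66 were gained at 48 h (38.8%), against 29.8% of all regions. In the trend test 24 of 229 fell (10.5%) and 43 rose (18.8%), against 12.3% and 12.1% of all regions. The same all-region shares apply to the genes named next. Nanog, whose product shares many target sites with POU5F1 and SOX2, had 2 of 8 regions lost and 4 of 8 gained at 48 h, 0 falling and 3 rising. Esrrb had 3 of 5 lost and 1 of 6 gained, and Zfp42 had 3 of 5 lost and 4 of 8 gained. Tfcp2l1 had 3 of 7 lost and 5 of 10 gained, and Klf4 had 1 of 2 lost and 6 of 12 gained. How these shares compare with the 3 loci or with all regions was not tested.

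By number of regions called over the 14 libraries, the genes most like Pou5f1 among 7142 were Sgsm1 (Pearson r = 0.861), Gm21969 (r = 0.843) and Nr5a2 (r = 0.814). Those most like Sox2 were Olig1 (r = 0.885), Bpifb5 (r = 0.843) and Pkd1 (r = 0.834), and those most like Sall4 were Igfbp5 (r = 0.931), Pax2 (r = 0.915) and Dmap1 (r = 0.898). The 3 loci themselves were less alike, with r = 0.412 for Pou5f1 and Sall4, 0.0691 for Pou5f1 and Sox2 and 0.0754 for Sox2 and Sall4. The points share libraries and list lengths, and the values are descriptions of the highest among many genes.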

How the data were processed

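Peak lists of 14 ATAC-seq libraries were analysed. The authors made them with the ENCODE ATAC-seq pipeline (version 1.9.0). Per the file names, peaks passed an irreproducible discovery rate of 0.05 on pseudoreplicates of each library and a blacklist filter, so replicates were not pooled. The aligner is not given in the sources used here, and the labels name GRCm38 (mm10). The deposited value of each peak is a score on an unstated scale, used only as a percentile within its own list (the highest peak in a region). A threshold per list means that list length can move a call, and depth and intervals that need it cannot be had.

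Peaks were merged and assigned as described above with Python 3.11.15, numpy 2.4.6 and pandas 2.3.3. A call needed 1 bp of overlap. Trends used an exact two-sided permutation test of time ranks. Percentiles of regions called in all 14 libraries were compared with limma 3.58.1 in R 4.3.3, with 1 mean per time point. Benjamini-Hochberg adjustment ran over all regions tested, at a threshold of 0.05. The study's read-based test could not be run on peak lists. Sequences were read from the GRCm38 reference with pysam 0.24.0.

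Both tests were tested on simulated data. Where 39778 of 124598 regions were made to change, 49.9% were recovered by the trend test and 259 of its 20109 calls fell on unchanged regions, but where 200 were made to change 0% were recovered, so it makes calls only where many regions change together. For limma at 48 h against 0 h, with 200 of 18809 regions shifted, it recovered 0% of shifts of 10 points, 46.5% of 25 points and 81.5% of 50 points, with 0, 5 and 11 calls on unchanged regions. In the data 3389 regions were lower and 3315 higher at 48 h, many more than the 200 simulated. The simulated recoveries may therefore not carry over, and 2 members were called at -9.56 and -9.73 points. A missed call among always-called regions is still not read as the absence of a shift of about 10 to 25 points.

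The members and gene lists were chosen with earlier results of these data known. A further gene of the PrE marker list is not reported here. Regions were described singly if nearest the TSS, called in all 14 libraries, lost or gained at 48 h, or past a test, and others mostly by counts. Some of those others (Pou5f1 17.6, 3.4, 3.1 and 0.9 kb from the TSS, Sox2 93.4 and 111.0 kb downstream, and Sall4 46.8, 31.3, 23.3, 14.9, 1.6 and 5.4 kb) are named because of their values or motif matches. Alternatives covered the peak threshold, overlap, merging, distance, TSS choice, rule for loss, promoter regions, score scale, a replicate block, and leaving out 0 h or each library.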

Additional observations from a re-analysis of the deposited data

Results flagged for a closer look

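In 3 results, both libraries of one time point lay above and both libraries of another lay below every 0 h library, which brought them here. The number of Sall4 regions called per library was 2 above the 0 h mean at 48 h and differed from it by -2.5 at 2 h, and this difference was not tested. The percentile of the Pou5f1 region 1.9 kb upstream differed from 0 h by 6.64 points at 16 h and by -9.73 points at 48 h. That of the Pou5f1 region 3.7 kb downstream differed by 8.75 points at 2 h and by -25.6 points at 48 h. Its difference at 2 h did not pass the threshold (limma adjusted p = 0.380). The direct comparison of 48 h with 2 h at this region gave -34.3 points. The same values picked these time points, so that comparison is no separate test and no p-value is given for it. The comparison of 48 h with 16 h at the region 1.9 kb upstream was not tested.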

How the results depend on the processing

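Over 26 results, 176 alternatives that left out no replicate kept the direction and side of the threshold, or a count within 1.5 times, in 155 cases, and 280 that left out a library did so in 274. Part of the latter was fixed in advance. Leaving out a library of 2 to 24 h cannot change a percentile difference of 48 h against 0 h, only its adjusted p. Where 50% of a region had to be covered, Sall4 lost 3 regions at 48 h and 9 members were lost at 8 h. The rise of the Sox2 region 103.3 kb downstream was then no longer called (exact permutation test, adjusted p = 0.2195). The Sall4 region 2.6 kb downstream kept a call in 48 h replicate 2 alone under that rule, so its rise could not be tested. A 20 kb limit gave 0 lost at Sall4 at 48 h and 2 members lost at 2 h, and a 100 kb limit gave 9 gained, 2 lost at Sall4 and 9 rising. With a call in 1 library taken as enough, 12 were gained, Sox2 lost 7, and 8 were lost at 2 h and 8 at 8 h. Over 1 kb from any TSS, 2 were gained. With peaks up to 200 bp apart merged, the Pou5f1 regions 1.0 and 1.9 kb upstream became 1 region. Then 2 were lost at Pou5f1 at 48 h and 3 members fell. Without the 0 h libraries the fall of the Pou5f1 region 15.4 kb upstream missed the threshold (exact permutation test, adjusted p = 0.0622).

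With peak width in place of score, 2 members were lower at 48 h and 3 regions turned direction without passing the test, with differences of 1.45 (Pou5f1 1.9 kb upstream), -1.54 (Sall4 0.9 kb downstream) and 11.04 points (Sox2 94.8 kb downstream). The Pou5f1 region 1.9 kb upstream also missed the threshold with a logit scale (limma adjusted p = 0.0733), a linear trend (0.278), without 0 h replicate 1 (0.0621) and without 48 h replicate 2 (0.0621). With regions called in at least 12 libraries admitted, 2 members counted as higher, Sall4 5.4 kb downstream and 31.3 kb upstream, but each has a single 0 h value and passed that filter through the later time points, so this count is no test of them. The Sox2 region 0.6 kb upstream ranged from -9.62 to 0.105 points when 1 library was left out, the latter without 0 h replicate 2. The cause was not tested.

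Leaving out 1 library at a time gave 8 to 10 members lost and 5 to 11 gained at 48 h. The 11 came without 48 h replicate 1, and the regions this added lay at Pou5f1, Sox2 and Sall4. By gene, leaving out 1 library gave 3 lost at Pou5f1, 4 to 6 at Sox2 and 1 at Sall4. At 2 h 4 to 6 members were lost and at 8 h 6 to 7. The other counts were 4 to 6 falling, 4 to 6 rising, 3 to 4 lower and 0 to 1 higher. Leaving out a library loosens the rule for lost and gained, so the counts of lost and gained regions could not go down.

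Libraries with the same replicate number did not deviate together region by region (r from -0.0152 to 0.0124 for calls and -0.140 to 0.134 for percentiles over 21 pairs). These correlations cannot see a shift shared by all regions. Replicate 2 had the longer peak list at every time point, from 61403 against 61393 peaks at 8 h to 61988 against 58322 at 2 h. Whether the replicate numbers pair the libraries is therefore not settled. With a replicate block 4 regions fell and 4 rose, 4 were lower and 0 higher at 48 h, and no call changed.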
